A study of Mus musculus with 2 samples.

Results

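Mir21a and the Mir29 genes are the microRNA (miRNA) genes best known from fibrosis, the deposition of collagen-rich matrix by activated fibroblasts. Mir21a, Mir29a, Mir29b-1, Mir29b-2 and Mir29c, 5 of the 1973 miRNA genes in the count files, were chosen by name, each through its Ensembl gene ID in the GENCODE mouse annotation, and all 5 were found. The rule that picked them uses names and no measured value. The samples were hearts of B6NCrl mouse embryos at embryonic day 15.5, described as healthy, with no treatment or altered allele named in the labels. They form 1 group with 2 biological replicates, a pool of hearts from 78 embryos (replicate 1) and one from 62 embryos (replicate 2), both of mixed sex. With a single group, the data give the level of each gene, the order of the levels and the difference between the pools, and compare no conditions. In whole heart tissue, fewer cells of a type and less RNA per cell cannot be told apart.

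A miRNA is cut from a hairpin transcript as a short strand from either arm (5p or 3p) and lowers the output of mRNAs that pair with its seed, bases 2 to 8. miR-21 is carried by many cell types and is known for its rise in stressed hearts, where it promotes fibroblast survival by lowering Sprouty proteins. The miR-29 miRNAs act on the other side. They pair with the mRNAs of fibrillar collagens, elastin and fibrillin, and their fall after cardiac injury accompanies scar formation.

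The mature strands set what a count of these genes can tell, so they are shown first. The sequences are those of RefSeq on GRCm38.p6, the assembly also called mm10, where all 5 genes were matched by symbol. Each runs 5′ to 3′, with the seed in capitals.
miR-21a-5p: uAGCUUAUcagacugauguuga
miR-29a-3p: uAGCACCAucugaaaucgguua
miR-29c-3p: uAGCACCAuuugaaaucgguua
miR-29b-3p: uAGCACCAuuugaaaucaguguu
The 3 miR-29 strands share the seed AGCACCA, and 0 other genes of the RefSeq table carry it. Counted from 1 at the 5′ end, miR-29a-3p and miR-29c-3p differ by 1 substitution, C10U, outside the seed. From miR-29c-3p to miR-29b-3p the substitutions over the 22 bases compared are G18A, U21G and A22U. The first 17 bases of miR-29c-3p and miR-29b-3p are therefore identical.

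miR-29b-3p is made from both Mir29b-1 and Mir29b-2, and its 23 bases stand whole in both hairpins. Those hairpins differ in their other arm, shown here because it is the annotated strand that tells them apart.
miR-29b-1-5p: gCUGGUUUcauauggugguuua
miR-29b-2-5p: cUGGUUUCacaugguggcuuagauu
Reads that matched several places of the genome entered no gene count. They made up 33.0% of all reads in replicate 1 and 30.1% in replicate 2. Among the 2202 miRNA hairpins of GENCODE M21, a read that starts at the first base becomes unique after 16 bases for miR-21a-5p, 10 for miR-29a-3p and 18 for miR-29c-3p. For miR-29b-3p no length up to the whole strand is unique. The counts of Mir29b-1 and Mir29b-2 can thus fall short of the level of miR-29b-3p by an amount that was not tested. The genome outside these hairpins was not searched. Reads of Mir21a, Mir29a and Mir29c that match elsewhere can also be missing, and this was not tested either.

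Mir21a (ENSMUSG00000065455.1) has a relative with its seed, and another that differs inside the seed.
miR-21c: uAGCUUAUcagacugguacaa
miR-21b: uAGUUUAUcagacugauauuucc
miR-21c keeps the first 15 bases of miR-21a-5p and departs at A16G. miR-21b departs from miR-21a-5p inside the seed at C4U. Mir21b and Mir21c had 0 counts in both libraries, which allows up to 0.872 and 0.514 CPM in replicates 1 and 2 (3 counts, counting error only). CPM are counts per 1000000 counts on the strand of a miRNA gene. Mir6338, whose mature strand shares the seed UGGUUUC with miR-29b-2-5p, also had 0 counts in both libraries.

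On GRCm38, Mir21a lies on the minus strand of chromosome 11, positions 86584067 to 86584158. All 92 bases fall in the untranslated part of the last exon of a transcript of Vmp1, a gene of autophagosome formation on the same strand. Mir29a (ENSMUSG00000065610.1, positions 31062660 to 31062747) and Mir29b-1 (ENSMUSG00000065604.1, positions 31063023 to 31063093) lie on the minus strand of chromosome 6 with 275 bases between them. Mir29a overlaps no other annotated gene, and Mir29b-1 overlaps the noncoding exon of Gm27019 by 2 bases. Mir29b-2 (ENSMUSG00000065412.2, positions 195037040 to 195037120) and Mir29c (ENSMUSG00000065548.1, positions 195037547 to 195037634) lie on the plus strand of chromosome 1, 426 bases apart. Both sit in an exon of the noncoding host A330023F24Rik and opposite an exon of Cd46, a complement regulator gene. The opposite strand of each of the 5 genes had 0 counts in both libraries.

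The libraries were sequenced to 7056606 and 11735546 reads in replicates 1 and 2, of which 3439539 (48.7%) and 5833156 (49.7%) were counted on a miRNA gene. Of the 1973 genes, 327 had at least 10 counts in each library and 1286 had 0 in both. The tissue label was checked on miRNAs of the heavy chain myosin genes. In replicates 1 and 2 Mir208b reached 53878 and 37837 CPM, Mir208a 5972 and 5801 CPM, and Mir499 2492 and 1829 CPM. All 3 were far above the 146 CPM that is the median of the genes with at least 10 counts in both.

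By its counts Mir21a was among the most abundant miRNA genes of the day 15.5 heart. It had 56106 counts in replicate 1, or 16312 CPM (exact binomial 95% interval 16179 to 16447), and 91710 in replicate 2, or 15722 CPM (15621 to 15824). The mean was 16017 ± 417 CPM (SD, n = 2), a coefficient of variation of 2.60%. CPM scale by total counts, and this spread depends on the scaling between libraries. Under the scaling used below to compare the pools, replicate 1 was 1.17 times replicate 2. The mean placed Mir21a at rank 16 of all genes, with rank 14 in replicate 1 and 17 in replicate 2. It held 1.63% and 1.57% of the counts in replicates 1 and 2. Reads that matched several places, 33.0% and 30.1% of all reads in replicates 1 and 2, are in no rank or share. Genes whose mature strand stands in several hairpins can therefore rank too low, and the rank of Mir21a can be too high. The neighbours of Mir21a in the order did not differ from it beyond their spread. Mirlet7d, a let-7 gene, stood next above at 16613 ± 1102 CPM, and Mir99b next below at 15447 ± 1342 CPM, and the ranges of both over the libraries overlapped that of Mir21a. Measured by the distance of log2(CPM + 0.5) over the 2 libraries, the 3 genes most like Mir21a were Mirlet7d (0.15), Mir17 (0.17) and Mir99b (0.18). Mir17, the first gene of the proliferation cluster Mir17-92, was lower than Mir21a in both libraries at 14688 and 14992 CPM.

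Mir29a was the leading Mir29 gene and lay far below Mir21a. It had 836 counts in replicate 1, or 243 CPM (227 to 260), and 1539 in replicate 2, or 264 CPM (251 to 277). The mean of 253 ± 14.7 CPM (SD, n = 2) gave rank 134, above the median of the genes counted in both libraries, with 40.7% of them higher. Mir669o (254 ± 33.4 CPM) and Mir27a (253 ± 31.6 CPM) flanked it in the order and were not distinct from it. By distance over both libraries the genes most like Mir29a were Mir27a (0.10), Mir669o (0.11) and Mir328 (0.11).

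Mir29c had 280 counts in replicate 1, or 81.4 CPM (72.1 to 91.5), and 395 in replicate 2, or 67.7 CPM (61.2 to 74.7). Its mean was 74.6 ± 9.68 CPM (SD, n = 2) at rank 205, where 62.4% of the genes with at least 10 counts in both libraries were higher. Replicate 1 was the higher library for Mir29c, whereas Mir29a had the higher CPM in replicate 2. Mir539 (75.6 ± 8.24 CPM) stood next above it by mean and Mir200a (74.5 ± 57.3 CPM) next below, and the ranges of both overlapped that of Mir29c. Both neighbours were lower than Mir29c in replicate 1 and higher in replicate 2, Mir539 at 69.8 and 81.4 CPM and Mir200a at 34.0 and 115 CPM. The close mean of Mir200a thus does not make its level like that of Mir29c in either library. The genes most like Mir29c over both libraries were Mir450-1 (distance 0.13), Mir6236 (0.16) and Mir181a-2 (0.16).

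The Mir29b genes were near the limit of counting. Mir29b-1 had 9 and 17 counts in replicates 1 and 2, or 2.62 CPM (1.20 to 4.97) and 2.91 CPM (1.70 to 4.67). Its mean was 2.77 ± 0.211 CPM (SD, n = 2) at rank 339. Mir29b-2 had 2 and 7 counts, or 0.581 CPM (0.0704 to 2.10) and 1.20 CPM (0.482 to 2.47), with a mean of 0.891 ± 0.437 CPM at rank 427. Neither reached 10 counts in both libraries. Many genes share such counts, so the neighbours of Mir29b-1 (Mir8111 and Mir1947) and of Mir29b-2 (Gm28033 and Mir5132) had overlapping ranges.

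**Figure D1:**
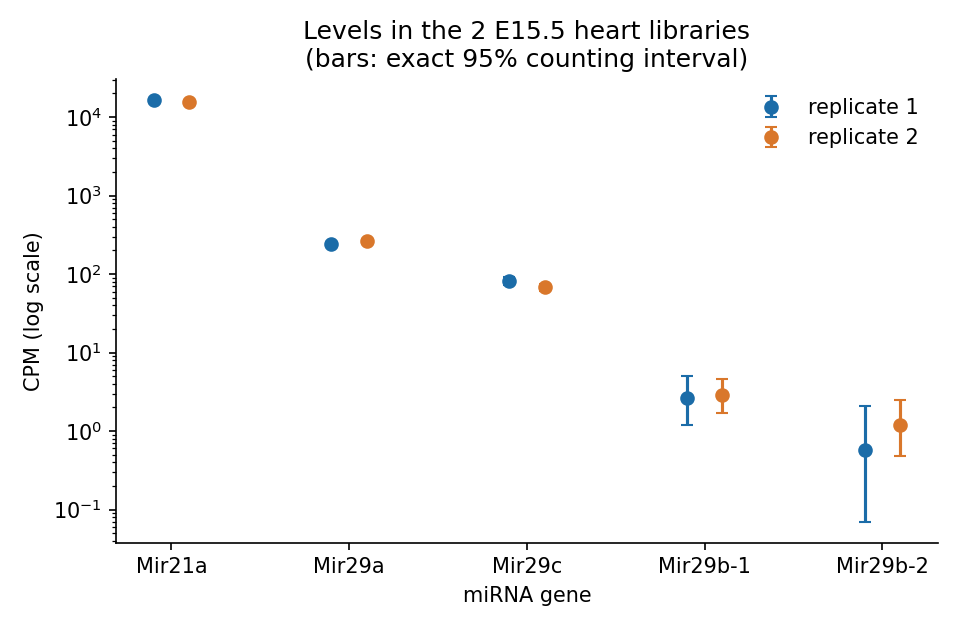
Levels of the 5 genes in CPM on a log axis, with a point for each of the 2 heart libraries and bars for the exact 95% counting interval. Mir21a sits near 16017 CPM, Mir29a and Mir29c lie between 67.7 and 264 CPM, and the Mir29b genes lie under 3 CPM with wide bars.

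The plot by rank places the 5 genes among all miRNA genes with a count. Genes that carry a mature strand also held whole by another hairpin were set beside the other genes. Of the 916 genes in the count files with a RefSeq mature strand, 103 carried such a shared strand. Of these 103, 39 (37.9%) reached 10 counts in both libraries at a median of 58.7 CPM, while 46 (44.7%) had 0 counts in both. Among the 813 other genes 261 (32.1%) reached 10 counts in both, at a median of 158 CPM, and 281 (34.6%) had 0 in both. Mir29b-1 and Mir29b-2 belong to the 103 and are not among the 39.

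**Figure D2:**
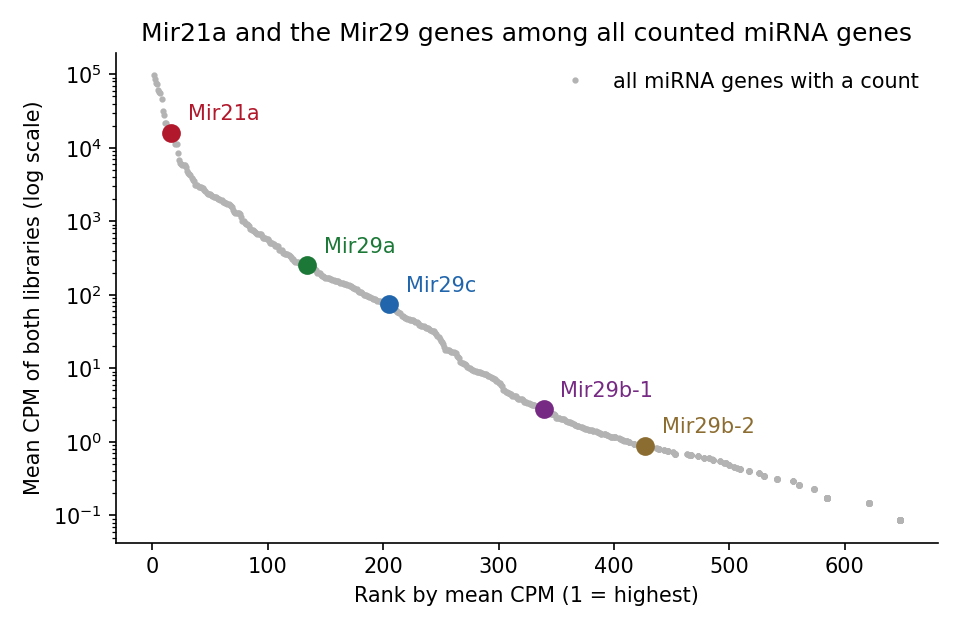
Mean CPM of every miRNA gene with a count (log axis) against its rank, with Mir21a and the Mir29 genes in colour. Mir21a is at rank 16, Mir29a at 134, Mir29c at 205, Mir29b-1 at 339 and Mir29b-2 at 427.

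Ratios within a library need no scaling between libraries. A strand gives a read whatever the length of its hairpin (71 to 92 bases here), so counts were not divided by length, and a ratio of counts need not be a ratio of amounts. Mir21a exceeded the 4 Mir29 genes together by 49.8 times in replicate 1 (exact binomial 95% interval 46.9 to 52.9) and 46.8 times in replicate 2 (44.8 to 49.0). These intervals overlap, and the mean log2 ratio was 5.59 ± 0.06 (SD, n = 2). Reads of miR-29b-3p that match both of its hairpins are not in the Mir29 counts. The ratios can therefore be too high by an amount that the intervals do not cover. The Mir29 genes summed to 1127 counts in replicate 1 and 1958 in replicate 2, or 328 and 336 CPM (332 ± 5.66). In CPM, which scale by total counts, the sum had a smaller SD than Mir29a (14.7 CPM) or Mir29c (9.68 CPM). The order of these SDs depends on the scaling between libraries, so it does not show that the sum was steadier than its parts.

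The makeup of the Mir29 sum differed between the libraries. Mir29a gave 74.2% of the Mir29 counts in replicate 1 and 78.6% in replicate 2, and Mir29c gave 24.8% and 20.2%. The ratio of Mir29a to Mir29c was 2.99 in replicate 1 (2.60 to 3.43) and 3.90 in replicate 2 (3.49 to 4.36). The counting intervals do not overlap, so the difference is larger than counting noise, while its size against the spread between further pools cannot be told from 2 libraries. The mean log2 ratio was 1.77 ± 0.27 (SD, n = 2), and Mir29a was the higher gene in both. A read from the first base is unique among the hairpins from 18 bases for miR-29c-3p and from 10 for miR-29a-3p. Shorter reads of miR-29c-3p can therefore go uncounted. The ratio can be too high in either library by an amount that was not tested.

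Within the chromosome 6 pair, Mir29a exceeded Mir29b-1 by 92.9 times in replicate 1 (48.7 to 204) and 90.5 times in replicate 2 (56.4 to 156). In the chromosome 1 pair, Mir29c exceeded Mir29b-2 by 140 times (38.4 to 1162) and 56.4 times (27.1 to 141), where the counting intervals overlap. The ratio of Mir29b-1 to Mir29b-2 was 4.50 (0.931 to 42.8) and 2.43 (0.957 to 6.93). Each library's interval includes 1, so neither library alone tells which Mir29b gene was higher. With the counts of both libraries summed, a choice made after seeing the data, 26 counts against 9 gave a ratio of 2.89 (1.31 to 7.01), with Mir29b-1 higher. Each ratio with a Mir29b gene leaves out the reads of the miR-29b-3p strand that match both hairpins. The plot of ratios shows the 5 ratios side by side.

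**Figure D3:**
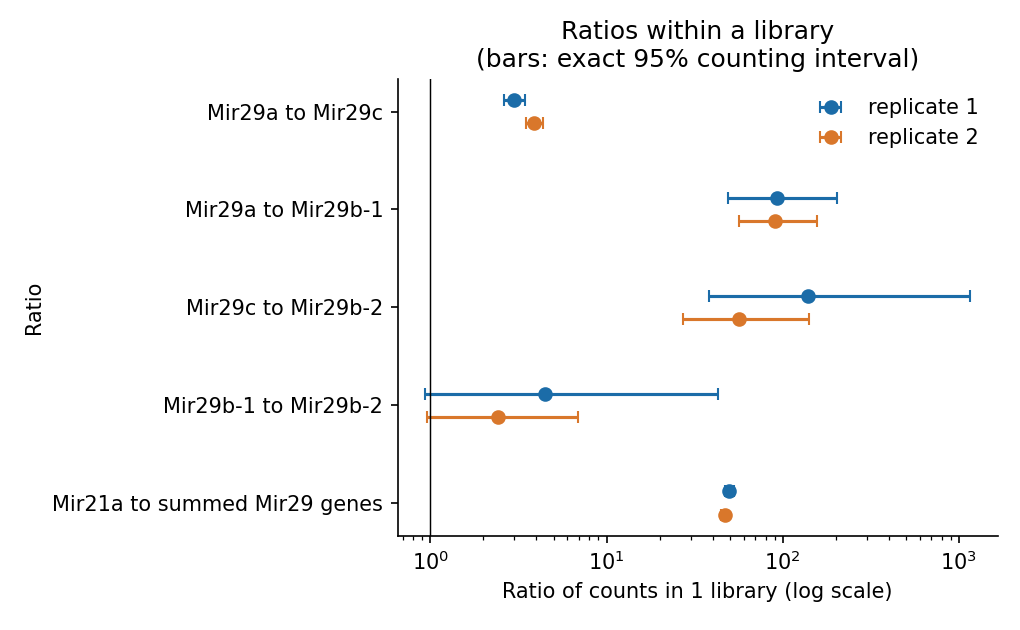
Ratios of counts within each library on a log axis, with exact 95% counting intervals, where 1 marks equal counts. The Mir29a to Mir29c intervals of the libraries do not overlap, and the Mir29b-1 to Mir29b-2 intervals include 1.

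The pools were then compared gene by gene. Counts were scaled by TMM, a trimmed mean of the log ratios between libraries, and tested with a two-sided exact binomial test against counting noise, with Benjamini-Hochberg adjustment over the 413 genes with at least 10 counts summed. The test compares these libraries, not conditions. Of the 4 genes tested here, 2 passed at an adjusted p under 0.05, Mir21a and Mir29c, both higher in replicate 1. Over all tested genes 46.5% passed (21.8% of the genes tested toward replicate 1 and 24.7% toward replicate 2). A share of 2 in 4 is close to that background. The spread between the pools beyond counting noise was large, with a common biological coefficient of variation of 29.9% in edgeR.

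For Mir21a the log2 ratio of replicate 1 to replicate 2 was 0.23 (exact 95% interval 0.21 to 0.24, adjusted p = 3.4e-184 by the exact binomial test), a ratio of 1.17. It is smaller than the median absolute log2 ratio of 0.30 over all tested genes. Scaled by total counts it fell to 0.05 (adjusted p = 2.8e-11). For Mir29c it was 0.44 (0.21 to 0.66, adjusted p = 0.00036 by the exact binomial test), and by total counts 0.27 (adjusted p = 0.039). The difference of Mir29c was larger than that of 61.7% of the tested genes, and that of Mir21a larger than 40.0%.

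Mir29a did not pass, at a log2 ratio of 0.05 (-0.07 to 0.18, adjusted p = 0.51 by the exact binomial test). Its sign turned with the scaling, to -0.12 by total counts (adjusted p = 0.11). Mir29b-1 had a log2 ratio of 0.02 with an interval of -1.33 to 1.26, and its sign turned too, to -0.16 by total counts. The interval of Mir29b-1 leaves room for a change of more than 2 times in either direction. Mir29b-2 had 9 counts summed, under the minimum of 10, and was not tested. Against total counts, TMM moved every log2 ratio by 0.17 toward replicate 1, and the median over all tested genes from -0.21 to -0.04.

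**Figure D4:**
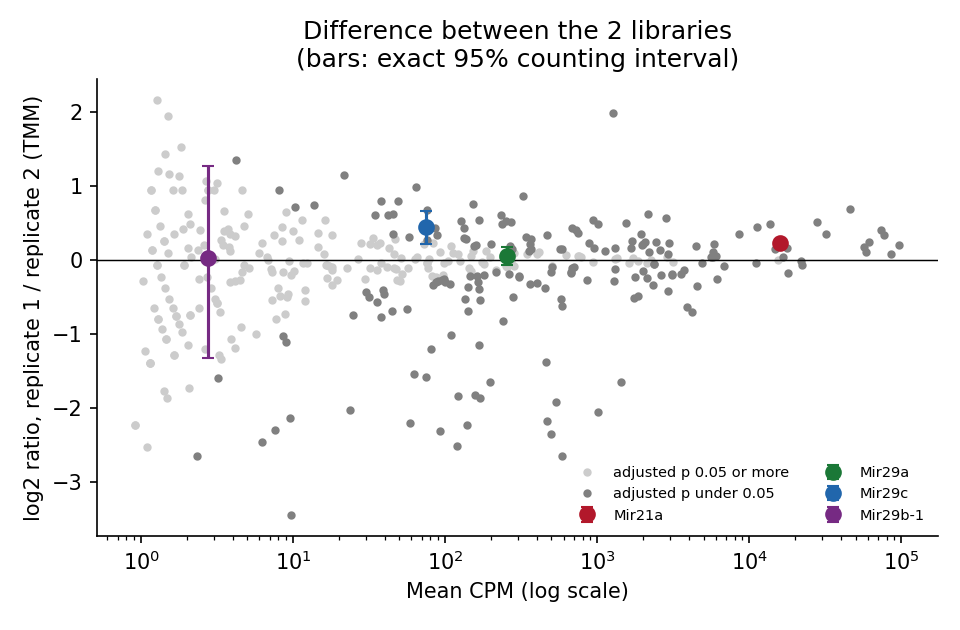
Log2 ratio of replicate 1 to replicate 2 after TMM scaling against mean CPM (log axis) for the tested genes, except 4 with 0 counts in a library. Mir21a (0.23) and Mir29c (0.44) lie above 0 with intervals that exclude it, and those of Mir29a and Mir29b-1 include 0.

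**Figure D5:**
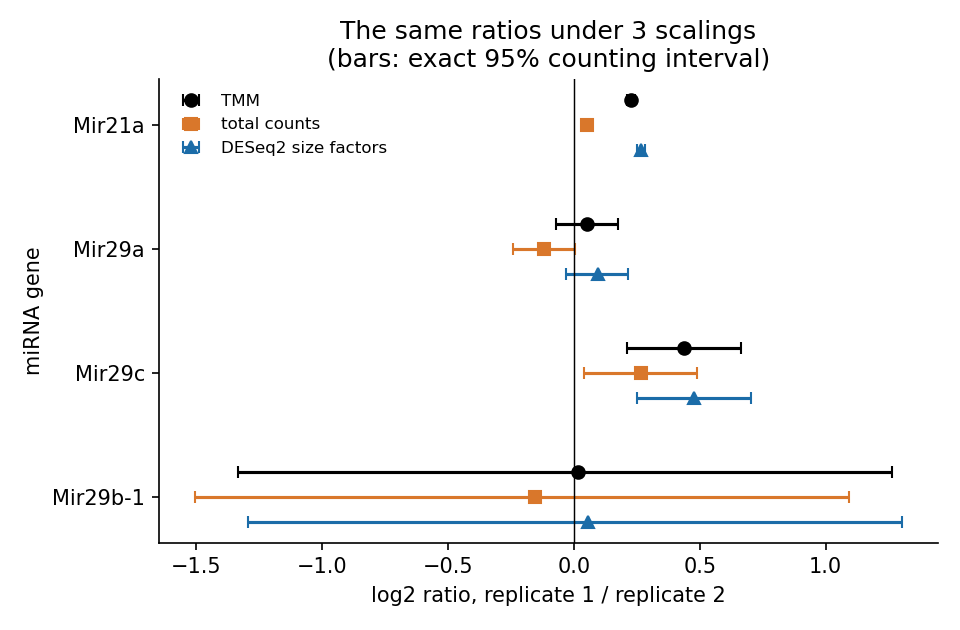
Log2 ratio of replicate 1 to replicate 2 with exact 95% counting intervals under TMM, total counts and DESeq2 size factors. Mir21a and Mir29c stay above 0 under all 3, and Mir29a and Mir29b-1 lie below 0 by total counts alone.

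Markers of several cell types moved between the same libraries. Their counts of calls stand beside background shares of 21.8% toward replicate 1 and 24.7% toward replicate 2 after TMM scaling, and 11.6% and 37.5% by total counts. The heart muscle list came to 62341 and 45466 CPM in replicates 1 and 2, and 3 of 3 genes were called higher in replicate 1. Endothelial Mir126a had 79217 and 67775 CPM, called toward replicate 1. The mesenchyme and fibroblast list summed to 5578 and 8924 CPM, with Mir140 (2830 and 4972 CPM) and Mir214 (2336 and 3536 CPM) called toward replicate 2, Mir199b called toward replicate 1, and the other 2 of its 5 genes not called. By total counts Mir199b (368 and 359 CPM) was not called and Mir199a-2 (40.7 and 55.4 CPM) was called toward replicate 2. The smooth muscle list, Mir143 with Mir145a, came to 83564 and 89291 CPM. Both genes were called toward replicate 1 after TMM scaling, but by total counts Mir143 was called toward replicate 2. The erythroid list (Mir451a and Mir144) had 2376 and 986 CPM, with Mir451a (1975 and 564 CPM) called toward replicate 1. Mir144, at 401 and 422 CPM, was not called. The leukocyte list had 480 and 702 CPM, with 2 of 3 tested genes (Mir223 and Mir155) called toward replicate 2. Mir142, also on that list, was not among the counted genes, so the leukocyte sums leave it out. Mir142b had 0 counts on its own strand, but 5452 and 15543 on the opposite strand in replicates 1 and 2. These are in no sum, and whether they are reads of Mir142 was not tested. The epithelium list had 1821 and 6297 CPM, with 7 of 7 called toward replicate 2. The part of these cell types in the differences of Mir21a and Mir29c was not tested.

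Other miRNAs reported to act on cardiac fibrosis give the setting. Of 11 miRNA genes reported to promote it besides Mir21a, all 11 had at least 10 counts in both libraries. None had a mean above Mir21a, and 7 lay above Mir29a. Their means ran from 16.8 CPM for Mir212 to 5886 ± 121 CPM for Mir208a, the heart muscle miRNA of Myh6. Mir503, a neighbour of Mir322, followed at 1709 ± 121 CPM, and Mir433, of the Dlk1-Dio3 region, at 571 ± 9.32 CPM. Since reads that matched several places entered no count, a level can fall short where another hairpin holds the same mature strand. For such genes the order against Mir21a and Mir29a holds for the counts alone. After TMM scaling 5 of the 11 were called higher in replicate 1, 3 were called higher in replicate 2 and 3 did not pass, where 21.8% and 24.7% of all tested genes were called in these directions. Mir34a, a target of p53, was among the first, at 261 and 210 CPM, and so were Mir208a, Mir125b-2, Mir199b and Mir433. Mir125b-1 (262 and 348 CPM), Mir154 (436 and 551 CPM) and Mir155 (128 and 211 CPM) were called the other way. The median log2 ratio was 0.03, beside -0.04 over all tested genes. By total counts the calls were 3 and 5, with a median of -0.14 beside -0.21 over all tested genes.

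Of 21 miRNA genes reported to limit cardiac fibrosis besides the Mir29 genes, 17 were among the counted genes and 13 reached 10 counts in both libraries. The other 4 (Mir1a-2, Mir24-1, Mir101c and Mir378a) were not analysed here. Only Mir30e exceeded Mir21a, at 27773 ± 4568 CPM, and 6 of the 17 lay above Mir29a by mean CPM. Mir30a (13735 ± 2031 CPM) and Mir30d (11202 ± 1456 CPM), which with Mir30e lower connective tissue growth factor, came next. Reads that matched several places entered no count here either. A low count of a list gene need not be a low level of its miRNA where another hairpin holds the same strand, and this shortfall was not tested. Of 15 tested, 8 were called higher in replicate 1, among them Mir30a, Mir30d, Mir30e, Mir24-2 and Mir101b. Mir18, listed as Mir18a, was called higher in replicate 2 (1771 and 2213 CPM), and 6 did not pass. Over all tested genes 21.8% were called toward replicate 1 and 24.7% toward replicate 2. The median log2 ratio of the list was 0.33, beside -0.04 over all tested genes. By total counts it was 0.16 beside -0.21, and 5 genes were called toward replicate 1, with Mir24-2, Mir101b and Mir30c-1 no longer called. Mir29c, at 0.44, was called toward replicate 1 like those 8, and Mir29a, at 0.05, was not. Most of the 8, and most of the 5 by total counts, were genes of the Mir30 family, and the median of 0.33 is the value of Mir30c-1. The calls thus describe that family more than the list as a whole.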

How the data were processed

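Small RNA libraries from total RNA, selected for fragments under 30 bases per the labels, were analysed from the read counts per miRNA gene deposited by the authors, 1 file per library. The deposited text descriptions name mm10 as the assembly and GENCODE M4 as the annotation. For the aligner, the trimming and the counting, the tool is not given in the sources used here. Each file holds either-strand, gene-strand and opposite-strand counts, and the gene-strand column was used. Reads that name no gene (51.3% and 50.3% of reads in replicates 1 and 2) stayed out of totals and tests. Symbols and positions came from GENCODE M21 by Ensembl ID, mature sequences from RefSeq (GRCm38.p6). The files' genome sequence was not used here, so shared strands were sought among annotated hairpins only.

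The libraries were scaled with TMM in edgeR 4.0.16 (R 4.3.3) and compared by an exact binomial test (two-sided, conditional on the summed count), with Benjamini-Hochberg adjustment over genes with at least 10 counts summed. This took the place of a quasi-likelihood test because a single group leaves no contrast to fit. Intervals are exact Clopper-Pearson intervals at 95%. Like the limit of 3 counts for a gene at 0, they cover no error but that of counting. Python 3.11.15 and scipy 1.17.1 were used, and the scripts were tested on simulated data. Alternatives were total counts, DESeq2 1.42.0 size factors, other minimum counts, the either-strand column, other denominators, a pseudocount and leaving out a replicate. Named genes were the 5 genes, genes sharing a seed with them, neighbours in the order of levels, the 3 nearest genes by level over both libraries, the 3 leading genes of each list and list genes called with a mean of at least 1000 counts. Mir21b, Mir142b, Mir155, Mir199a-2, Mir30c-1, Mir212, the list genes not used here and the neighbours in order were named after their values were seen. The members and lists were chosen with earlier results of these data known.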

Additional observations from a re-analysis of the deposited data

How the results depend on the processing

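No paired analysis was possible because the study has a single group. By total counts the sign between the libraries turned for Mir29a and Mir29b-1, with log2 ratios of -0.12 and -0.16. It also turned for Mir143 (0.07 to -0.10) and for the median of the genes reported to promote fibrosis (0.03 to -0.14). Mir21a and Mir29c passed the exact binomial test under all 5 alternatives, with log2 ratios of 0.05 to 0.27 and 0.27 to 0.48 and a highest adjusted p of 2.8e-11 and 0.039. Mir29a and Mir29b-1 passed under none, with adjusted p from 0.11 to 0.65 and from 0.90 to 1, and the minimum of 100 counts leaves Mir29b-1 out. By total counts the calls over all genes moved from 90 to 48 toward replicate 1 and from 102 to 155 toward replicate 2, so that 23.6% of calls in place of 46.9% were toward replicate 1. Per 1000000 of all reads, the levels of Mir21a, Mir29a, Mir29b-1, Mir29b-2 and Mir29c were 7883, 125, 1.36, 0.440 and 36.7. Per 1000000 reads matched to 1 place, those of Mir21a, Mir29a and Mir29b-1 were 14515, 229.7 and 2.51, and with either-strand counts that of Mir21a was 15166. These levels are lower by construction, since the denominator is larger. A pseudocount of 0.5 moved the log2 ratio of Mir29a to Mir29b-1 from 6.52 to 6.46. The other settings that keep both libraries moved levels and ratios by less than 1 SD. Leaving out a replicate gives the value of the other library, which with 2 libraries always lies within 1 SD of the mean and is no test of stability. Without replicate 2 the level of Mir29b-2 was 0.581 CPM in place of 0.891, and the log2 ratio of Mir29c to Mir29b-2 was 5.82 without replicate 1 and 7.13 without replicate 2 in place of 6.47. Depth limits the Mir29b genes most, since a single count was worth 0.291 CPM in replicate 1 and 0.171 CPM in replicate 2.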
